A study of Mus musculus with 10 samples.

Results

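Insulin signalling and the mTOR complexes were examined through 10 genes of mouse myotubes: Insr, Irs1, Irs2, Akt1, Akt2, Tsc2, Mtor, Rptor, Rictor and Deptor. They were chosen by name from the pathway and by being listed with an FPKM value in the deposited expression table, and all 10 were among its 11228 genes. Rptor and Irs1 were also chosen by the position of peaks of the lncRNA Charme, so their peaks are given as a description. The fold changes did not enter the rule, but results of these data were known when the genes were listed.

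The myotubes, multinucleate cells that form when myoblasts fuse, had been differentiated in vitro for 2 days. Charme, a muscle lncRNA, was silenced with gapmers, which are antisense oligonucleotides through which RNase H cuts the bound transcript. Polyadenylated RNA was sequenced from 2 libraries of GAP-2, 2 of GAP-2/3 and 2 of the scrambled control GAP-scr, and a ChIRP-seq experiment, which pulls down an RNA with DNA probes and sequences the attached DNA, gave 1 merged peak list. No genotype, strain or cell line is given in the labels, all 3 groups carry a gapmer, and there is no untreated group. By its name GAP-2/3 could contain the gapmer of the GAP-2 arm, and both arms were compared with the same GAP-scr libraries, so the arms are not independent of each other. Charme itself was not analysed here, so no knock-down level stands behind the group labels.

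Insulin and the insulin-like growth factors bind receptor tyrosine kinases, which phosphorylate the adaptors IRS1 and IRS2. These recruit phosphoinositide 3-kinase, whose lipid product brings the kinases AKT1 and AKT2 to the membrane. AKT relieves the block that TSC2 and its partner place on the GTPase Rheb, and Rheb activates mTOR complex 1, the form of the kinase that holds raptor, the product of Rptor. The other form, mTOR complex 2, holds rictor and phosphorylates AKT in turn, and DEPTOR binds and restrains both forms. In skeletal muscle this pathway drives glucose uptake, glycogen and protein synthesis, and raptor-containing mTOR is needed for normal muscle mass in mice.

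Rptor and Irs1 moved in opposite directions in both gapmer arms. Rptor fell to 0.657 of its GAP-scr mean in GAP-2 and to 0.481 in GAP-2/3, while Irs1 rose to 1.38 and 2.01 times its GAP-scr mean. Around them Rictor was higher in GAP-2/3, Deptor was lower in both arms, Mtor, Akt1, Akt2 and Tsc2 were lower in GAP-2/3, and Insr and Irs2 did not pass the test in any comparison. A value passed where limma, fitted on log2(FPKM + 1) across 10993 genes, gave a Benjamini-Hochberg adjusted p under 0.05. Not all of these calls were firm. That of Irs1 in GAP-2 held in 7 of 15 alternative fits, and those of Mtor, Tsc2 and Deptor in GAP-2/3 in 9, 8 and 8. FPKM corrects for the length of the transcript and the size of the library, so it allows levels of different genes to be compared.

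The libraries were alike in their median FPKM, at 11.9 to 13.3, and the sequencing depth behind them is unknown from FPKM. Rn45s, the ribosomal RNA precursor, stood at 4090 FPKM in GAP-2 replicate A and 3387 in GAP-scr replicate A, while every other library lay between 93.2 and 176. Taken over all genes, the log2 change had a median of 0.07 with GAP-2, 0.13 with GAP-2/3, 0.10 for the mean of both arms, and 0.05 for GAP-2/3 against GAP-2. All 7 myotube markers were listed, with summed FPKM of 10209 to 10764 in GAP-2, 12578 to 12682 in GAP-2/3 and 16015 to 17588 in GAP-scr. Of them 6 were lower for the mean of both arms, 6 in GAP-2 and 2 in GAP-2/3, Ckm and Acta1. Over all genes 24.5% were higher and 9.57% lower for the mean, and 4.18% were lower in GAP-2 and 11.3% in GAP-2/3. Acta1 averaged 2904 FPKM in GAP-2, 3071 in GAP-2/3 and 5979 in GAP-scr. The 3 listed myoblast markers Myf5, Id1 and Id3, with Pax7 and Msc not in the table, summed to 99.98 to 110 FPKM in GAP-2, 137 to 138 in GAP-2/3 and 73.9 to 76.8 in GAP-scr. Of the fibroblast markers 5 of 7 were listed, at 1149 to 1343 FPKM in GAP-2, 875 to 985 in GAP-2/3 and 1294 to 1311 in GAP-scr. The sum hides opposite changes, since 2 of the 5 were higher and 1 lower for the mean of both arms. Dcn averaged 72.0 ± 1.03 FPKM in GAP-2, 125 ± 3.17 in GAP-2/3 and 44.9 ± 10.9 in GAP-scr (SD, n = 2 each), and Pdgfra 2.31 ± 0.0469 in GAP-2, 3.97 ± 0.498 in GAP-2/3 and 1.60 ± 0.129 in GAP-scr. Col1a1, which carries most of the sum, was lower, at 711 ± 111 FPKM in GAP-2, 421 ± 50.2 in GAP-2/3 and 793 ± 21.0 in GAP-scr. Of 6 adipocyte markers Adipoq, Fabp4, Plin1 and Cidec were not in the table, and Pparg and Lpl summed to 2.05 to 3.05 FPKM over all libraries. None of 5 endothelial markers was in it, and of 5 macrophage markers Cd68 alone, at 2.43 and 3.54 FPKM in GAP-2, 0.962 and 0.834 in GAP-2/3, against 0.374 and 0.917 in GAP-scr. The part of these marker shifts in the changes below was not tested.

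The promoters of both complex-defining subunits and both receptor substrates are shown so that a reader can set them side by side. Of these genes Rptor and Irs1 passed in both arms, Rictor in GAP-2/3, and Irs2 in neither. Each line holds the 250 bases before an annotated start of transcription from RefSeq on GRCm38.p6, read 5′ to 3′ on the gene's strand, with capitals marking matches to CACGTG or CCGGAA, the latter also as its reverse complement TTCCGG. The Rictor start used lies inside the gene's span, which begins at 6708349. The end of its window, with TTCCGG, therefore lies within the span. Rptor and Rictor encode the defining subunits of the mTOR complexes, and Irs1 and Irs2 the insulin receptor substrates.
Rptor, chr11:119602655-119602904, plus strand: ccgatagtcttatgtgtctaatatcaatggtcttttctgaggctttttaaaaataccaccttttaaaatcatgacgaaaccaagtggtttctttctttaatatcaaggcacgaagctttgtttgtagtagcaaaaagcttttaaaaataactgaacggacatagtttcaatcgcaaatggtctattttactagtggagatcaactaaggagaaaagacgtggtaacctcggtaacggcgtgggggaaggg
Rictor, chr15:6708131-6708380, plus strand: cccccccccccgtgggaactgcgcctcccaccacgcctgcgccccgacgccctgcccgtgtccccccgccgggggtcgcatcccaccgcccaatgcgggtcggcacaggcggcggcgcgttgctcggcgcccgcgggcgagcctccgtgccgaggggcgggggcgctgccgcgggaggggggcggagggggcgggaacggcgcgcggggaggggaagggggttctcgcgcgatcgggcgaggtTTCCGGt
Irs1, chr1:82291440-82291689, minus strand: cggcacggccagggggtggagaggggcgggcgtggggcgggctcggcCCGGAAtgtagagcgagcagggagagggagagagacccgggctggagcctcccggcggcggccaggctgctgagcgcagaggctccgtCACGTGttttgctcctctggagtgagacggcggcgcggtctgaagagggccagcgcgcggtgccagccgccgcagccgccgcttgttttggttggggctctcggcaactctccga
Irs2, chr8:11008930-11009179, minus strand: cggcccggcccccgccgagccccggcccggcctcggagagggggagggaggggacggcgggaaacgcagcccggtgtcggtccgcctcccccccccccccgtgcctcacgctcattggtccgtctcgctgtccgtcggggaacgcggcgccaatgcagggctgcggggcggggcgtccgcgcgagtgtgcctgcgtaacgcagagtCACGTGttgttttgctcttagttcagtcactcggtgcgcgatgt
The Rptor window was the AT-rich one, with 37.6% G and C and 9 CpG, against medians of 52.4% and 6 CpG over 32851 windows. Rictor had 81.2% and 40 CpG, Irs1 72.4% and 28 CpG, and Irs2 72.8% and 34 CpG.

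Both substrates held CACGTG, the E-box read by bHLH-zip factors, at position -115 in Irs1 and -44 in Irs2, counted back from the start. It occurred in 6.02% of all windows. The ETS core CCGGAA, which 12.0% of windows held, was found in Irs1 at position -203 and, as TTCCGG, in Rictor at -7. It was also found in Mtor and Tsc2, where the Tsc2 match, at -8, lay within the span of the gene. On both strands the search further covered CAGCTG, the E-box of myogenic factors, GTAAACA, the forkhead core, and TATAAA, which 13.0%, 3.17% and 12.4% of windows held. None of these letters occurred in the printed windows, and no match overlapped another. Outside them GTAAACA was found, as TGTTTAC, in an Akt1 window at -161. CAGCTG was found at -229 in an Akt2 window that lay within the span of the gene. RefSeq promoters were at hand for 8 of the 10 genes, all except Insr and Deptor.

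Seen by level in GAP-scr, the AKT kinases led the list and the insulin receptor and Irs2 closed it. Akt2 averaged 94.3 ± 11.9 FPKM and Akt1 85.9 ± 0.957 (SD, n = 2 each), and the libraries of this pair overlapped. Deptor followed at 45.9 ± 2.46, Rptor at 34.0 ± 2.82, Tsc2 at 18.2 ± 2.54, Irs1 at 14.3 ± 1.67, Mtor at 11.6 ± 0.476, Rictor at 10.6 ± 0.605, Insr at 6.29 ± 0.126 and Irs2 at 1.48 ± 0.157 FPKM. Apart from Akt2 and Akt1, no neighbours in this order had overlapping GAP-scr libraries. Irs2 was above 1 FPKM in every library and all 10 genes were tested.

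**Figure D1:**
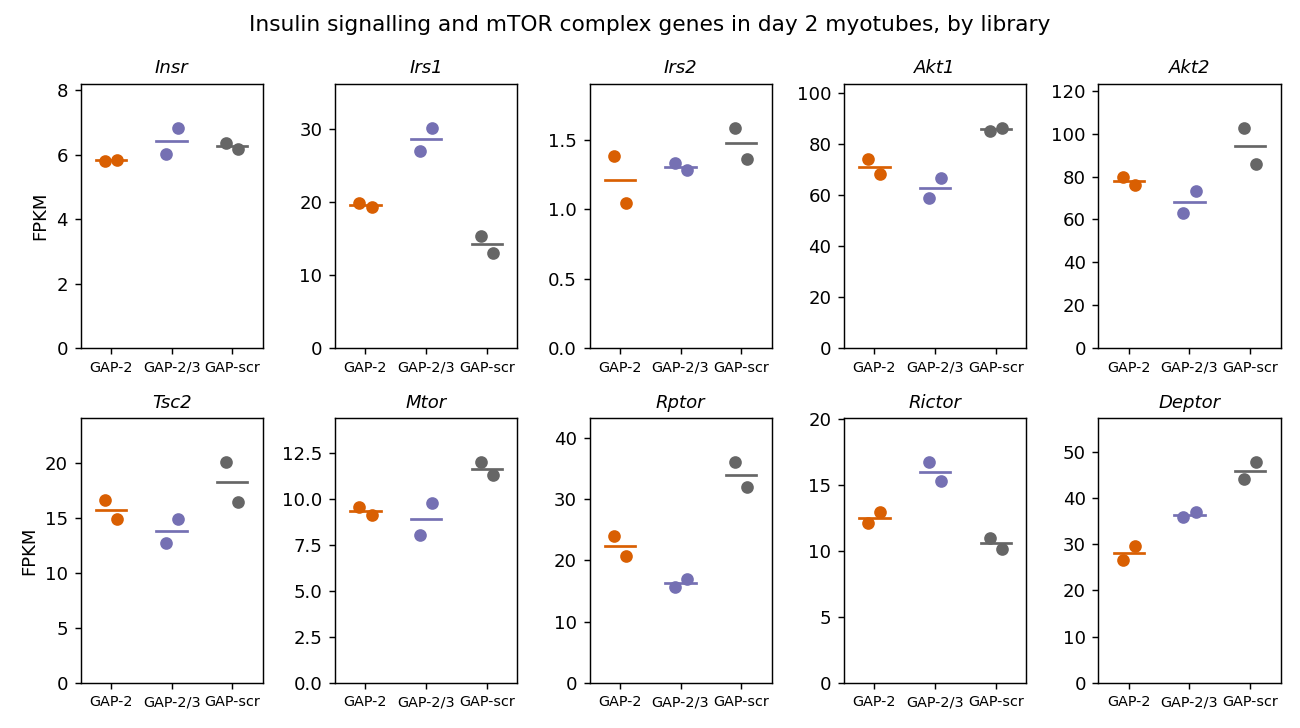
FPKM of each gene (vertical axis, from 0) in every library of GAP-2, GAP-2/3 and GAP-scr; points are libraries and bars the group means. Rptor lies at 15.7 to 24.0 FPKM in the gapmer libraries and at 32.0 to 36.0 in GAP-scr, and Irs1 at 19.3 to 30.2 against 13.1 to 15.4.

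Each arm was first set against GAP-scr. With GAP-2, 3 of the 10 genes passed, 1 higher and 2 lower, where 14.6% of all tested genes did (10.4% higher, 4.18% lower). With GAP-2/3, 8 passed, 2 higher and 6 lower, where 39.3% of all genes did (28.0% higher, 11.3% lower). The 10 genes had a median log2 change of -0.23 with GAP-2 and of -0.34 with GAP-2/3. For the mean of both arms 7 passed, 2 higher and 5 lower, where 34.1% of all genes did (24.5% higher, 9.57% lower), and the median was -0.30. A fit that left out both libraries with high Rn45s was chosen after seeing the data and left 1 library each in GAP-2 and GAP-scr. The calls lost there were those of Akt2 (-0.34), Mtor (-0.32), Tsc2 (-0.24) and Deptor (-0.38) in GAP-2/3, and those of Akt2 (-0.26) and Mtor (-0.30) for the mean. Without GAP-2/3 replicate A the changes in that arm were -0.96 for Rptor and 1.04 for Irs1. They were 0.49 for Rictor and -0.36 to -0.23 for Akt1, Akt2, Deptor, Tsc2 and Mtor. Without GAP-2 replicate B the GAP-2 changes were -0.48 for Rptor, 0.46 for Irs1 and -0.76 for Deptor. In both of these fits fewer of the 10 genes and fewer of all tested genes passed. In bulk libraries fewer cells of a type and less RNA per cell cannot be told apart. The labels do not say that the libraries came from separate cultures, so the spread behind each p-value is that between the sequenced libraries and may be technical. Fold changes on the log2(FPKM + 1) scale understate those of low genes such as Irs2. Where groups of 2 libraries are said not to overlap, this is a description, and its share over all genes was not computed. GAP-2 and GAP-scr did not overlap for Insr either, with a log2 change of -0.09 (limma adjusted p = 0.614).

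**Figure D2:**
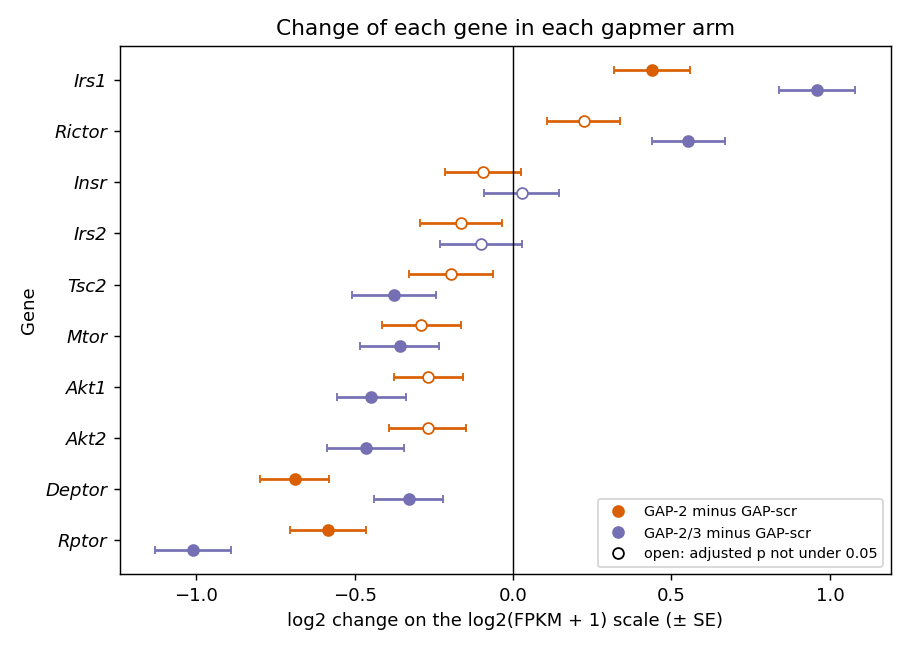
Log2 change against GAP-scr on the log2(FPKM + 1) scale (horizontal axis) of each gene in GAP-2 and in GAP-2/3; bars are the SE and open points have an adjusted p not under 0.05. Irs1 and Rictor lie right of 0 in both arms, Rptor and Deptor left of it, and the larger change of Rptor and of Irs1 is in GAP-2/3.

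At the receptor, Insr, the insulin receptor, stood at 5.80 and 5.85 FPKM in GAP-2, at 6.03 and 6.84 in GAP-2/3, against 6.38 and 6.20 in GAP-scr. Its log2 change was -0.09 ± 0.12 in GAP-2 (limma adjusted p = 0.614) and 0.03 ± 0.12 in GAP-2/3 (adjusted p = 0.869; SE throughout). The GAP-2/3 and GAP-scr libraries overlapped, and no alternative fit brought Insr past the threshold. With the libraries scaled to one median its GAP-2/3 change was -0.081.

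Irs1, the main receptor substrate of muscle, had 19.9 and 19.3 FPKM in GAP-2, 27.1 and 30.2 in GAP-2/3, against 15.4 and 13.1 in GAP-scr. All 4 gapmer libraries were above both GAP-scr libraries, and GAP-2/3 was above GAP-2 without overlap. The log2 change was 0.96 ± 0.12 in GAP-2/3 (limma adjusted p = 0.000199) and 0.44 ± 0.12 in GAP-2 (adjusted p = 0.0316). For the mean of both arms it was 0.70 ± 0.10 (adjusted p = 0.000764), higher than that of 96.8% of all tested genes. The GAP-2/3 change passed in 15 of 15 alternative fits. The GAP-2 change passed in 7 of 15, with adjusted p between 0.00899 and 0.183. It missed after scaling to one median (0.37, adjusted p = 0.0540), under quantile normalization (0.38, adjusted p = 0.0521), without either GAP-2 replicate (0.42 without A, 0.46 without B), without either GAP-2/3 replicate (0.44 each) without GAP-scr replicate B (0.33) and with only the libraries of the groups compared (0.44, adjusted p = 0.0608).

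Irs2, the second substrate, was far lower, at 1.38 and 1.05 FPKM in GAP-2, 1.33 and 1.28 in GAP-2/3, against 1.59 and 1.37 in GAP-scr. Its log2 change was -0.16 ± 0.13 in GAP-2 (limma adjusted p = 0.403) and -0.10 ± 0.13 in GAP-2/3 (adjusted p = 0.550). The ratio between the substrates set the arms apart from GAP-scr. Irs1 to Irs2 was 14.4 and 18.4 in GAP-2, 20.3 and 23.6 in GAP-2/3, against 9.71 and 9.57 in GAP-scr. The ratio of Irs1 to Insr was 3.44 and 3.30 in GAP-2, 4.49 and 4.42 in GAP-2/3, against 2.42 and 2.11 in GAP-scr.

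The AKT kinases, which carry the signal from the membrane, were lower in GAP-2/3. Akt1 had 74.2 and 68.4 FPKM in GAP-2, 58.9 and 66.8 in GAP-2/3, against 85.2 and 86.6 in GAP-scr, so that no gapmer library reached GAP-scr. It fell by 0.45 ± 0.11 in GAP-2/3 (limma adjusted p = 0.00834), whereas in GAP-2 the log2 change was -0.27 ± 0.11 (adjusted p = 0.119). Akt2, the isoform that insulin uses most for glucose uptake, had 79.7 and 75.9 FPKM in GAP-2, 62.8 and 73.2 in GAP-2/3, against 102.7 and 85.9 in GAP-scr. All gapmer libraries were again lower, but the GAP-scr replicates lay far apart. It fell by 0.47 ± 0.12 in GAP-2/3 (adjusted p = 0.0119) and had a log2 change of -0.27 ± 0.12 in GAP-2 (adjusted p = 0.154). Without GAP-2/3 replicate A the GAP-2/3 changes were -0.36 for both genes and missed the threshold (adjusted p = 0.0886 for Akt1 and 0.130 for Akt2). The mean of both arms passed for Akt1 (-0.36 ± 0.09, adjusted p = 0.0146) and Akt2 (-0.37 ± 0.11, adjusted p = 0.0208). It missed without GAP-2 replicate B (-0.33 for Akt1, -0.35 for Akt2), without GAP-2/3 replicate A (-0.31 for each) and, for Akt2, without GAP-scr replicate A (-0.24).

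The ratio of Akt2 to Akt1 did not separate the groups. It was 1.07 and 1.11 in GAP-2, 1.07 and 1.10 in GAP-2/3, against 1.21 and 0.993 in GAP-scr, with the GAP-scr libraries on both sides of all others.

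Tsc2, the GTPase-activating subunit that switches Rheb off, had 16.6 and 14.9 FPKM in GAP-2, 12.7 and 14.9 in GAP-2/3, against 20.0 and 16.4 in GAP-scr. GAP-2 replicate A lay above GAP-scr replicate B, and the GAP-2/3 libraries lay below both. It fell by 0.38 ± 0.13 in GAP-2/3 (limma adjusted p = 0.0412), and its log2 change in GAP-2 was -0.20 ± 0.13 (adjusted p = 0.331). The GAP-2/3 call passed in 8 of 15 alternatives and was lost without either GAP-2 replicate (-0.38 each), without either GAP-2/3 replicate (-0.27 without A, -0.48 without B) and without GAP-scr replicate A (-0.24). Fitting only the libraries of the groups compared also lost it (-0.38, limma adjusted p = 0.0603), as did leaving out both libraries highest in Rn45s (-0.24). For the mean of both arms the change of -0.29 ± 0.11 missed (adjusted p = 0.0731), but passed after scaling to one median (-0.37, adjusted p = 0.0269), under quantile normalization (-0.37, adjusted p = 0.0309) and without GAP-scr replicate B (-0.42, adjusted p = 0.0273).

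Mtor, the kinase shared by both complexes, had 9.52 and 9.13 FPKM in GAP-2, 8.02 and 9.76 in GAP-2/3, against 12.0 and 11.3 in GAP-scr. Every gapmer library was below both GAP-scr libraries, and the arms overlapped each other. It fell by 0.36 ± 0.12 in GAP-2/3 (limma adjusted p = 0.0399) and by 0.32 ± 0.11 for the mean of both arms (adjusted p = 0.0375), with -0.29 ± 0.12 in GAP-2 (adjusted p = 0.135). These calls were among the least firm: 9 of 15 alternatives passed in GAP-2/3 and 8 of 14 for the mean. In GAP-2/3 the call was lost without GAP-2 replicates A or B (-0.36 each), without GAP-2/3 replicate A (-0.23) and also without GAP-scr replicate A (-0.32), and for the mean without any one library except GAP-2/3 replicate B (-0.36 to -0.26). The GAP-2/3 call was also lost with only the libraries of the groups compared (-0.36, limma adjusted p = 0.0732). Leaving out both libraries highest in Rn45s lost both calls, as given above.

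Rptor, the substrate-binding subunit of mTOR complex 1, had 24.0 and 20.7 FPKM in GAP-2, 15.7 and 17.0 in GAP-2/3, against 36.0 and 32.0 in GAP-scr. The groups formed 3 levels with no overlap. It fell by 1.01 ± 0.12 in GAP-2/3 (limma adjusted p = 0.000143), by 0.59 ± 0.12 in GAP-2 (adjusted p = 0.00896) and by 0.80 ± 0.10 for the mean of both arms (adjusted p = 0.000319). Set against the median change over all genes, that of the mean of both arms was -0.90, and only 0.464% of all tested genes had a lower one. The GAP-2/3 call passed in 15 of 15 alternatives, and the GAP-2 call in 14 of 15. The exception was the fit without GAP-2 replicate B (-0.48, adjusted p = 0.131).

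Rictor, which defines mTOR complex 2, moved the other way. It had 12.1 and 12.9 FPKM in GAP-2, 16.7 and 15.3 in GAP-2/3, against 11.0 and 10.1 in GAP-scr, again with no overlap between the 3 groups. It rose by 0.55 ± 0.12 in GAP-2/3 (limma adjusted p = 0.00384), by 0.39 ± 0.10 for the mean of both arms (adjusted p = 0.0128), and in GAP-2 its change was 0.22 ± 0.12 (adjusted p = 0.205). Without GAP-2/3 replicate A the GAP-2/3 change was 0.49 with an adjusted p of 0.0506. The mean missed without GAP-2 replicate B (0.37, adjusted p = 0.0619) and without GAP-scr replicate B (0.34, adjusted p = 0.0505).

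Deptor, the inhibitor of both complexes, was lower in both arms, with its lower level in GAP-2. It had 26.7 and 29.6 FPKM in GAP-2, 35.8 and 36.9 in GAP-2/3, against 44.2 and 47.6 in GAP-scr, and no library of one group overlapped another group. It fell by 0.69 ± 0.11 in GAP-2 (limma adjusted p = 0.00229), where 0.819% of genes had a lower change, by 0.33 ± 0.11 in GAP-2/3 (adjusted p = 0.0331) and by 0.51 ± 0.09 for the mean of both arms (adjusted p = 0.00260). The GAP-2 call passed in 15 of 15 alternatives and the GAP-2/3 call in 8 of 15. The GAP-2/3 call was lost without either GAP-2 replicate (-0.33 each), without either GAP-2/3 replicate (-0.31 without A, -0.35 without B) and without GAP-scr replicate B (-0.28). It was also lost with only the libraries of the groups compared (-0.33, limma adjusted p = 0.0670). Leaving out both libraries highest in Rn45s lost it too, as given above.

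Set against each other within a library, the mRNAs of the complex subunits showed the contrast most plainly. The ratio of Rptor to Rictor was 1.99 and 1.60 in GAP-2, 0.941 and 1.11 in GAP-2/3, against 3.27 and 3.16 in GAP-scr. Rictor to Mtor stood at 1.27 and 1.42 in GAP-2, 2.08 and 1.57 in GAP-2/3, against 0.920 and 0.899 in GAP-scr, and Rptor to Mtor at 2.52 and 2.27 in GAP-2, 1.96 and 1.74 in GAP-2/3, against 3.01 and 2.84 in GAP-scr. Scaling a library as a whole leaves these ratios as they are. The ratio of Deptor to Mtor did not separate the groups, at 2.80 and 3.24 in GAP-2, 4.46 and 3.78 in GAP-2/3, against 3.69 and 4.22 in GAP-scr. In all 8 pairs were computed, chosen after the values were seen. The exact permutation test on 4 gapmer and 2 GAP-scr libraries was made two-sided by doubling the smaller tail. In that form it cannot give a p below 0.133, so none could pass.

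**Figure D3:**
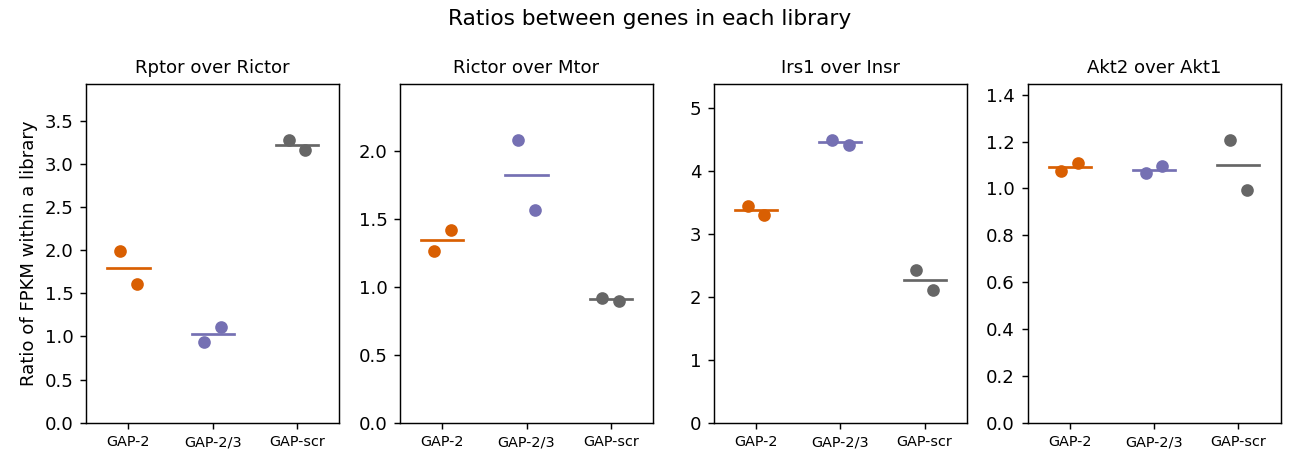
Ratio of FPKM between 2 genes in the same library (vertical axis, from 0) in GAP-2, GAP-2/3 and GAP-scr; points are libraries and bars the group means. Rptor over Rictor is 0.941 to 1.99 in the gapmer libraries against 3.16 to 3.27 in GAP-scr, while Akt2 over Akt1 stays between 0.993 and 1.21 in all of them.

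The arms were then compared directly. In GAP-2/3 against GAP-2, 2 of the 10 genes passed, 1 higher and 1 lower, where 10.1% of all tested genes did (6.5% higher, 3.65% lower). Irs1 was higher in GAP-2/3, by 0.52 ± 0.12 (limma adjusted p = 0.0198), and Rptor was lower, by a log2 change of -0.43 ± 0.12 (adjusted p = 0.0446). Both calls were lost without any one of the 4 gapmer libraries, with changes of 0.44 to 0.60 for Irs1 and -0.53 to -0.33 for Rptor. The Rptor call was also lost without both libraries highest in Rn45s. Deptor (0.36 ± 0.11, adjusted p = 0.0585) and Rictor (0.33 ± 0.12, adjusted p = 0.0947) missed, but passed without either GAP-scr replicate, where the same changes had adjusted p of 0.0247 to 0.0253 and 0.0457 to 0.0464.

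Across the 6 libraries some members followed Rptor, some ran against it and Insr did neither, which is a description of 3 groups of 2 and not of independent points. On the log2(FPKM + 1) scale Pearson's r with Rptor was 0.970 for Akt1, 0.944 for Akt2, 0.906 for Mtor and 0.904 for Tsc2, -0.948 for Rictor and -0.922 for Irs1. The r was lower for Irs2 (0.575) and Deptor (0.506), and -0.03 for Insr. How common such values are over all genes is not given, so they are not set apart from the background. Among the 8508 genes that averaged 5 FPKM or more, those most like Rptor were Ctif (0.997), Zswim4 (0.997), Actn2 (0.996), Rreb1 (0.995) and Cdc34 (0.994). Those most like Irs1 were Fam115a (0.996), Phtf1 (0.996), Cby1 (0.996), Spred1 (0.995) and Sesn3 (0.995). Actn2 encodes a Z-disc protein of the sarcomere and had 9.69 and 8.51 FPKM in GAP-2, 5.10 and 5.44 in GAP-2/3, against 20.1 and 15.6 in GAP-scr.

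Peaks of the Charme ChIRP-seq experiment lay within the spans of Rptor, Irs1 and Deptor, the last of which the rule does not name. The peak list held 798 peaks. In it 195 of 11185 matched genes of the expression table, 1.74%, had a peak within their span on GRCm38. The score is the authors' own, with a median of 2913 over all peaks, and 39.0% of the peaks were 82 or 83 bp wide, as were all 3 of these. Even and odd probe sets cannot be compared in a single list without replicates, and the annotation used gives gene spans only, so that exon or intron is not stated.

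The Rptor peak was chr11:119654996-119655078, 83 bp wide and 52.1 kb downstream of the start of the gene (chr11:119602905-119899591, plus strand). Its score of 3355 ranked 316 of 798. The Irs1 peak was chr1:82273921-82274002, 82 bp wide and 17.5 kb downstream of the start (chr1:82233105-82291439, minus strand), with a score of 1748 and rank 621. The Deptor peak, chr15:55142271-55142353, 83 bp wide, lay 30.0 kb from the lower-coordinate end of the gene (chr15:55112317-55259273), with a score of 1412 and rank 693. With only the peaks above the median score, Rptor alone kept its peak.

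All 3 genes with a peak were longer than most. Rptor spans 297 kb, Deptor 147 kb and Irs1 58.3 kb, where matched genes had a median of 23.0 kb and those under a peak one of 106 kb. Insr (129 kb), Mtor (109 kb) and Rictor (92.1 kb) are longer than Irs1 and had no peak. The nearest peak of the other 7 lay between 102 kb (Akt1) and 5596 kb (Insr) away, and was 228 kb away for Rictor. Of the genes under a peak Rptor and Deptor were lower and Irs1 higher in both arms. Whether a peak bears on the level of its gene was not tested.

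The rest of the pathway was counted in 9 lists of textbook genes, drawn up with earlier results of these data known. Of 142 genes listed 132 were in the table, all of which were tested. For the mean of both arms 22 were higher and 21 lower, for GAP-2 16 and 9, and for GAP-2/3 24 and 30, beside the background shares of 34.1%, 14.6% and 39.3%. By direction, the background was 24.5% higher and 9.57% lower for the mean, 10.4% and 4.18% in GAP-2, and 28.0% and 11.3% in GAP-2/3. In the lists that follow, the counts for the mean stand beside the first of these pairs. The median log2 change was -0.03 for the mean of both arms, 0.00 in GAP-2 and -0.02 in GAP-2/3. The split depended on scaling: with the libraries scaled to one median it was 18 and 32 for the mean, 13 and 15 in GAP-2 and 18 and 41 in GAP-2/3. Under the same scaling 1569 of all 10993 genes were higher and 1560 lower for the mean, 686 and 642 in GAP-2, and 1888 and 1817 in GAP-2/3. Without both libraries highest in Rn45s fewer of the listed genes, and fewer of all genes, were lower for the mean. Leaving out GAP-2/3 replicate A lowered the count in GAP-2/3, and leaving out GAP-2 replicate A or B that in GAP-2. The counts over all genes fell in the same fits.

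**Figure D4:**
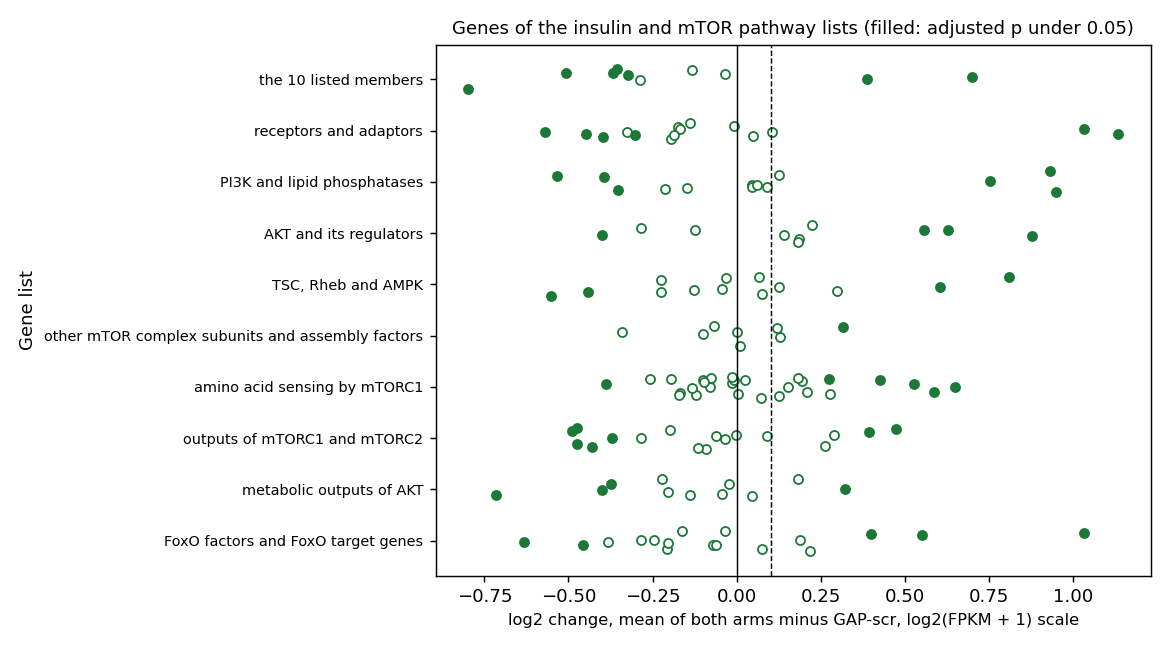
Log2 change of both arms' mean against GAP-scr on the log2(FPKM + 1) scale (horizontal axis) for each gene, by list; filled points have an adjusted p under 0.05, the solid line is 0 and the dashed line the median of all genes, 0.10. Every list has points on both sides of 0, and the medians of the 9 lists lie between -0.17 and 0.18.

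Among receptors and adaptors 2 of 15 genes were higher and 4 lower for the mean of both arms, with a list median of -0.17. The higher ones were Grb14, an adaptor that inhibits the insulin receptor, and Cav1, the main structural protein of caveolae. Grb14 lay under 1 FPKM in both GAP-scr libraries (0.633 and 0.499). It met the filter of 1 FPKM only through the gapmer libraries, which limits its call. Grb14 averaged 1.90 ± 0.172 FPKM in GAP-2, 3.07 ± 0.0454 in GAP-2/3 and 0.566 ± 0.0949 in GAP-scr (SD, n = 2 each; log2 change 1.13 ± 0.11, limma adjusted p = 3.06e-05), and Cav1 74.8 ± 2.97 in GAP-2, 118 ± 8.36 in GAP-2/3 and 45.4 ± 4.48 in GAP-scr (1.03 ± 0.10, adjusted p = 3.26e-05). Igf1r, the receptor of the insulin-like growth factors, was lower, at 4.25 ± 0.184 FPKM in GAP-2, 3.76 ± 0.0850 in GAP-2/3 and 6.42 ± 0.0144 in GAP-scr (-0.57 ± 0.10, adjusted p = 0.00201).

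In the list of phosphoinositide 3-kinase and lipid phosphatases 3 of 13 were higher and 3 lower, with a median of 0.05. The regulatory subunits Pik3r3 and Pik3r1 of the kinase rose, Pik3r3 to 23.2 ± 2.01 FPKM in GAP-2 and 27.9 ± 0.872 in GAP-2/3, against 13.1 ± 3.46 in GAP-scr (SD, n = 2 each; log2 change for the mean of both arms 0.93 ± 0.13, limma adjusted p = 0.000595). Pik3r1 averaged 16.6 ± 1.57 FPKM in GAP-2, 14.3 ± 2.10 in GAP-2/3 and 8.74 ± 0.915 in GAP-scr (0.75 ± 0.12, adjusted p = 0.00100).

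Of 10 genes for AKT and its regulators 3 were higher and 1 lower, and the median was 0.18. Trib2, a pseudokinase of the Tribbles family, averaged 4.61 ± 0.289 FPKM in GAP-2, 15.1 ± 1.13 in GAP-2/3 and 4.17 ± 0.0962 in GAP-scr. GAP-2/3 exceeded GAP-2 by 1.52 ± 0.12 (limma adjusted p = 1.98e-05). Them4, reported to bind AKT, rose by 0.63 ± 0.11 for the mean of both arms (adjusted p = 0.00154), and Trib1 by 0.56 ± 0.10 (adjusted p = 0.00256).

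Of 13 genes for TSC, Rheb and AMPK 2 were higher and 2 lower (2 and 4 after scaling to one median), with a median of -0.03. Ddit4l, a relative of the mTOR complex 1 inhibitor REDD1, averaged 2.20 ± 0.409 FPKM in GAP-2, 2.64 ± 0.312 in GAP-2/3 and 0.944 ± 0.0491 in GAP-scr (0.81 ± 0.12, limma adjusted p = 0.000640). It too lay under 1 FPKM in both GAP-scr libraries (0.979 and 0.910) and met the filter only through the gapmer libraries. The AMPK subunits went both ways. Prkaa1, a catalytic subunit, rose by 0.60 ± 0.11 (adjusted p = 0.00218), and Prkag3, the regulatory subunit of fast muscle, fell by 0.55 ± 0.10 (adjusted p = 0.00237). Tsc1, the partner of Tsc2, had a log2 change of -0.13 ± 0.10 (adjusted p = 0.343) and Rheb one of 0.30 ± 0.11 (adjusted p = 0.0584).

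Of the other subunits and assembly factors of the mTOR complexes 1 of 8 was called, and the median log2 change was 0.00. Mlst8, shared by both complexes, changed by 0.13 ± 0.11 (limma adjusted p = 0.355), Akt1s1, the raptor partner PRAS40, had -0.10 ± 0.11 (adjusted p = 0.488), and Mapkap1, the rictor partner SIN1, 0.01 ± 0.09 (adjusted p = 0.951). The gene called was Tti2, an assembly factor (0.32 ± 0.10, adjusted p = 0.0307). It was lost under both scalings (0.23 and 0.19) and without any one library other than GAP-2/3 replicate B (0.30 to 0.33). In GAP-2 alone none of the 8 passed in limma, and 1 had an unadjusted p under 0.05.

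Genes of amino acid sensing held 5 higher and 1 lower of 28, or 3 and 2 after scaling to one median, with a list median of 0.00. The sestrins Sesn1 and Sesn3, of the family that restrains mTOR complex 1 when leucine is scarce, rose by 0.59 ± 0.09 (limma adjusted p = 0.00121) and 0.53 ± 0.10 (adjusted p = 0.00293) for the mean of both arms. In GAP-2 alone neither passed (0.30, adjusted p = 0.0874, and 0.32, adjusted p = 0.0892). Sesn2, of the same family, had a change of -0.17 ± 0.13 for the mean (adjusted p = 0.326) and of -0.66 in GAP-2/3 (adjusted p = 0.00582). Sesn1 averaged 36.8 ± 3.33 FPKM in GAP-2, 55.5 ± 1.05 in GAP-2/3 and 29.7 ± 0.523 in GAP-scr. Fnip1, the folliculin partner, rose by 0.65 ± 0.11 for the mean of both arms (adjusted p = 0.00207).

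Among the outputs of the mTOR complexes 2 of 17 were higher and 5 lower, with a median of -0.09. Pdcd4, a translation inhibitor that the S6 kinases mark for decay, rose by 0.47 ± 0.10 for the mean of both arms (limma adjusted p = 0.00389). It averaged 15.0 ± 0.0593 FPKM in GAP-2, 25.6 ± 1.38 in GAP-2/3 and 13.8 ± 0.579 in GAP-scr. Rps6kb2, an S6 kinase, fell by 0.48 ± 0.10 (adjusted p = 0.00604), and Prkca, a substrate of mTOR complex 2, by 0.49 ± 0.11 (adjusted p = 0.00569). Rps6kb1, the other S6 kinase, had 0.26 ± 0.12 (adjusted p = 0.106). In GAP-2 alone Pdcd4 (0.11, limma adjusted p = 0.526), Rps6kb2 (-0.35, adjusted p = 0.0713) and Prkca (-0.33, adjusted p = 0.0916) did not pass.

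The metabolic outputs of AKT held 1 higher and 3 lower of 11, or 0 and 4 after scaling to one median, with a median of -0.14. Gys1, the glycogen synthase of muscle, fell to 50.6 ± 0.324 FPKM in GAP-2 and 39.8 ± 4.93 in GAP-2/3, against 74.5 ± 8.60 in GAP-scr (-0.72 ± 0.11, limma adjusted p = 0.000764). Slc2a1, the glucose transporter GLUT1, averaged 83.8 ± 11.2 FPKM in GAP-2, 41.9 ± 1.25 in GAP-2/3 and 78.7 ± 10.8 in GAP-scr, and GAP-2/3 lay below GAP-2 by a log2 change of -0.98 ± 0.13 (adjusted p = 0.000736). Tbc1d1, a Rab GTPase-activating protein that AKT and AMPK phosphorylate, fell by 0.37 ± 0.10 for the mean of both arms (adjusted p = 0.0166). That call was lost without GAP-2 replicate B (-0.36), GAP-2/3 replicate A (-0.32) or GAP-scr replicate A (-0.28). In GAP-2 alone Tbc1d1 did not pass (-0.23, limma adjusted p = 0.199). The mean change of Slc2a1 (-0.40 ± 0.11, adjusted p = 0.0183) was lost without GAP-2 replicate A (-0.33), GAP-2/3 replicate A (-0.38) or B (-0.41), or GAP-scr replicate B (-0.26).

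AKT restrains the FoxO factors as proteins. The list of their genes and of their target genes split into 3 higher and 2 lower of 17, or 3 and 7 under either scaling, with a median of -0.07. Pdk4, a kinase that restrains pyruvate oxidation, averaged 17.0 ± 0.828 FPKM in GAP-2, 37.7 ± 1.91 in GAP-2/3 and 11.9 ± 0.692 in GAP-scr (1.03 ± 0.10, limma adjusted p = 3.06e-05). Trim63, the muscle ubiquitin ligase MuRF1, fell by 0.63 ± 0.12 (adjusted p = 0.00236) and Gadd45a, a stress-response gene, by 0.46 ± 0.10 (adjusted p = 0.00602). In GAP-2 alone Gadd45a did not pass (-0.23, adjusted p = 0.194). Targets of the same factors thus lay on both sides of GAP-scr.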

How the data were processed

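RNA-seq libraries came from 3 groups of 2 and ChIRP-seq libraries from 1 even-probe, 1 odd-probe, 1 input and 1 LacZ-probe sample. The deposited expression table holds FPKM per gene and library, and the deposited peak list holds a position and a score per peak, with no values per sample. The submitters' processing notes name TopHat2, Cufflinks, Cuffdiff, Bowtie2, MACS, bedtools and others and the build mm9, without roles or versions. A peak on chromosome X lies past the end of that chromosome in mm9, so peaks were read as GRCm38.

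Genes averaging 1 FPKM or more over the libraries (10993 of 11228) were tested on log2(FPKM + 1), a pseudocount of 1, in R 4.3.3 by limma 3.58.1, with its intensity trend, all 3 groups in 1 fit and no covariate. Benjamini-Hochberg adjustment ran over all tested genes. The fit was tested on simulated data. Whole reads could not be recovered from FPKM, so no count test was run, and counting intervals cannot be given. A gene was counted under a peak where their spans shared at least 1 bp. Tables and figures were made with Python 3.11.15, pandas 2.3.3, scipy 1.17.1 and matplotlib 3.10.9.

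The genes, lists and tests were chosen with earlier results of these data known. All 10 genes are named. From each pathway list the 3 genes with the smallest p for the mean of both arms are named, among those that passed in any comparison, as are the 5 genes most like Rptor and the 5 most like Irs1. Some results under this rule are not reported here. Other genes named to complete a complex or family were chosen after their values were seen. Alternatives covered the pseudocount, the filter, scaling, the trend, a replicate block, single libraries left out and, added after the data were seen, both libraries highest in Rn45s left out.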

Additional observations from a re-analysis of the deposited data

Results flagged for a closer look

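The difference between the gapmer arms passed the test for 2 of the 10 genes. Irs1 was higher in GAP-2/3 than in GAP-2 by 0.52 ± 0.12 on the log2(FPKM + 1) scale (28.6 ± 2.23 FPKM in GAP-2/3, against 19.6 ± 0.441 FPKM in GAP-2; SD, n = 2 each; limma adjusted p = 0.0198). Rptor was lower in GAP-2/3, with a log2 change of -0.43 ± 0.12 (16.4 ± 0.937 FPKM in GAP-2/3, against 22.4 ± 2.29 in GAP-2; adjusted p = 0.0446). Both libraries of each group lay on the stated side. Over the alternatives the adjusted p was 0.00431 to 0.158 for Irs1 and 0.0170 to 0.471 for Rptor. The cause was not tested.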

How the results depend on the processing

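Of the single-gene results of the 10 genes under all alternatives, 515 kept their direction and side of the threshold, 56 kept only the direction and missed, 9 newly passed and 6 changed sign. The 515 include results that missed in both fits. They also include alternatives that cannot move the change itself, such as those of the trend, the filter, the replicate block or a left-out library of the group not compared. The sign changes concerned comparisons in which the gene had not passed: Insr in GAP-2/3 (-0.081 with one median, -0.11 under quantile normalization, and -0.051 to 0.11 with a library left out) and for the mean of both arms (-0.073 to 0.0060 with a library left out), and, for GAP-2/3 against GAP-2, Irs2 (-0.048 to 0.17) and Mtor (-0.19 to 0.060) with a library left out. Fitting only the libraries of the groups compared gave 916 genes for GAP-2 against 1604, and 2086 for GAP-2/3 against GAP-2 in place of 1115. In that fit 5 of the 10 genes passed in GAP-2/3 and 4 for GAP-2/3 against GAP-2, where 32 pathway genes passed in place of 19. Without both libraries highest in Rn45s the calls of the 10 genes named above as lost there did not pass. With only the peaks above the median score 1 of the 10 lay under a peak, against 3 with all. The cause of these shifts was not tested.

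Leaving out 1 library at a time gave 497 to 2636 genes in GAP-2, 1520 to 4508 in GAP-2/3, 2063 to 3967 for the mean of both arms and 184 to 2094 for GAP-2/3 against GAP-2. Of the 10 genes it left 1 to 3, 2 to 7, 3 to 7 and 0 to 4 in the same order, and of the pathway lists 10 to 33, 29 to 54, 32 to 42 and 9 to 32; a lone library was assumed to vary like the other groups. Over all genes GAP-2 had 1144 higher and 460 lower calls, GAP-2/3 3081 and 1242, and the mean 2698 and 1052, against 686 and 642, 1888 and 1817, and 1569 and 1560 after scaling to one median. With the replicate block 1955, 4466, 3944 and 1469 genes passed in the order GAP-2, GAP-2/3, mean, GAP-2/3 against GAP-2, and no call of the 10 genes changed. The labels do not say what the letters mark. Deviations from the group means correlated between same-lettered libraries at -0.181 for GAP-2 with GAP-2/3, -0.131 for GAP-2/3 with GAP-scr and 0.360 for GAP-2 with GAP-scr, whose A libraries are those with high Rn45s; shared handling of that pair was not tested. Irs2 had no value with a minimum mean of 5 FPKM, and the mean of both arms has no fit with only its own libraries, since it uses all of them. With 2 libraries a group and no counts, a change that misses the threshold is not shown to be absent.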

Other observations

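Some pathway genes differed between the arms, and those below were chosen after their values were seen. Ddit4 and Trib3 passed in both arms with opposite signs, and Sesn2 and Enpp1 passed in 1 arm each. Ddit4, the mTOR complex 1 inhibitor REDD1, averaged 214 ± 11.7 FPKM in GAP-2, 90.4 ± 5.56 in GAP-2/3 and 132 ± 12.2 in GAP-scr (SD, n = 2 each). Its log2 change was 0.69 ± 0.11 in GAP-2 (limma adjusted p = 0.00252) and -0.54 ± 0.11 in GAP-2/3 (adjusted p = 0.00358), and GAP-2/3 differed from GAP-2 by -1.24 ± 0.11 (adjusted p = 5.32e-05). Trib3, a pseudokinase that binds AKT, averaged 46.4 ± 7.43 FPKM in GAP-2, 11.8 ± 3.01 in GAP-2/3 and 28.8 ± 3.82 in GAP-scr, with changes of 0.67 ± 0.17 (adjusted p = 0.0232) and -1.24 ± 0.17 (adjusted p = 0.000367), and a difference of -1.90 ± 0.17 (adjusted p = 4.68e-05).

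Sesn2, the leucine-binding sestrin, was lower in GAP-2/3, at 8.72 ± 1.89 FPKM there, against 18.0 ± 0.852 in GAP-2 and 14.3 ± 2.01 in GAP-scr, with changes of 0.32 ± 0.15 in GAP-2 (adjusted p = 0.161) and -0.66 ± 0.15 in GAP-2/3 (adjusted p = 0.00582). GAP-2/3 differed from GAP-2 by -0.98 ± 0.15 (adjusted p = 0.00191). Enpp1, a membrane protein reported to restrain the insulin receptor, was higher in GAP-2/3 than in GAP-2: it averaged 37.8 ± 0.595 FPKM in GAP-2/3, 17.2 ± 1.29 in GAP-2 and 31.7 ± 0.794 in GAP-scr, a difference between the arms of 1.09 ± 0.11 (adjusted p = 0.000111). It fell by 0.85 ± 0.11 in GAP-2 (adjusted p = 0.000629), and the GAP-2/3 change was 0.25 ± 0.11 (adjusted p = 0.0917).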
